A study of Mus musculus with 6 samples.

Results

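A panel of 10 astrocyte genes was followed in whole adult mouse brain. The 7 reactive members, which rise when astrocytes respond to injury or inflammation, were Gfap, Vim, Serpina3n, Lcn2, Cd44, Steap4 and Osmr, and the 3 homeostatic members, which serve water and glutamate handling, were Aqp4, Slc1a2 and Slc1a3. Members were matched by gene symbol, a step that uses no measured value, and all 10 were found among the 37310 genes of the count table. The panel itself, like the lists below, was chosen with earlier results of these data known. RNA sequencing had been carried out on ribosome-depleted total RNA from C57BL/6 males aged 12 weeks. The study's design text names foetal brain where the sample labels and protocol give adult brain, and the labels were followed. The mutant group was Adar1 E861A/E861A Ifih1-/- (3 brains, below E861A), in which the RNA-editing enzyme ADAR1 is present throughout the body as a catalytically inactive protein. The control group was Adar1+/+ Ifih1-/- (3 brains, below wild type), so both groups lacked MDA5, the cytosolic double-stranded RNA sensor encoded by Ifih1, in every cell. No brain with intact MDA5 was in the comparison, and the counts hold no check of the point mutation itself. The question was whether loss of ADAR1 editing, in mice without MDA5, altered the RNA of astrocytes at rest or in their reactive state.

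Astrocytes clear glutamate from synapses through the transporters GLT-1 (Slc1a2) and GLAST (Slc1a3), and they carry the water channel aquaporin-4 (Aqp4) on the endfeet that surround blood vessels. In infection, trauma or neurodegeneration they build up intermediate filaments and secrete acute-phase proteins, a change driven in large part by cytokines of the IL-6 and oncostatin M type through STAT3. Interferon acts on the same cells through receptors of its own, and excess type I interferon in the brain is a hallmark of Aicardi-Goutières syndrome, one cause of which is loss of ADAR1 function.

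The 6 libraries held 26853488 to 38076753 counts assigned to genes. Counts of libraries of the same genotype differed beyond sampling noise in all pairs compared (chi-square per degree of freedom 3.97 to 10.1), so all were kept as separate samples. Markers of neurons, oligodendrocytes, microglia and astrocytes were present in every library. E861A replicate 1 stood apart in a summed level of 438.6 CPM (counts scaled to a library total of 1000000) of 5 pituitary hormone genes, against 1.30 to 3.31 in the other 5 libraries. Results were therefore also computed with this library left out, as with each of the others.

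Per kilobase of annotated exon, the members spanned a wide range of levels, and their order was the same in both genotypes for the leading 6. Slc1a2 stood first at 317 CPM per kb in E861A and 276 in wild type. Next came Slc1a3 (57.5 and 53.9 CPM per kb), Aqp4 (38.7 and 38.7), Gfap (25.4 and 24.8), Vim (13.5 and 13.7) and Serpina3n (3.69 and 3.77), and the library values of these 6 genes did not overlap between neighbours in that order. Osmr (1.02 and 0.929) and Cd44 (0.846 and 0.953) overlapped each other, as did the lowest pair, Lcn2 (0.231 and 0.352) and Steap4 (0.106 and 0.211). Slc1a2 alone took 0.349% to 0.426% of all counts and ranked between 8th and 13th of all genes in the 6 libraries, whereas Gfap ranked between 1682 and 1864.

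In the mouse genome build of the counts (mm9, GENCODE vM1 annotation), Gfap lies at chr11:102748650-102762226 on the minus strand, Vim at chr2:13495554-13504453 on the plus strand and Serpina3n at chr12:105644939-105652539 on the plus strand. Lcn2 lies at chr2:32240153-32243317 (minus strand) and Steap4 at chr5:7960472-7982213 (plus strand). Osmr (chr15:6763577-6824313) and Slc1a3 (chr15:8584124-8660764) share the minus strand of chromosome 15, 1.76 Mb apart, and Aqp4 is on chromosome 18. Counts are over annotated exons, and of the 10 members only Slc1a2 shares exon bases with another annotated gene.

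**Figure D1:**
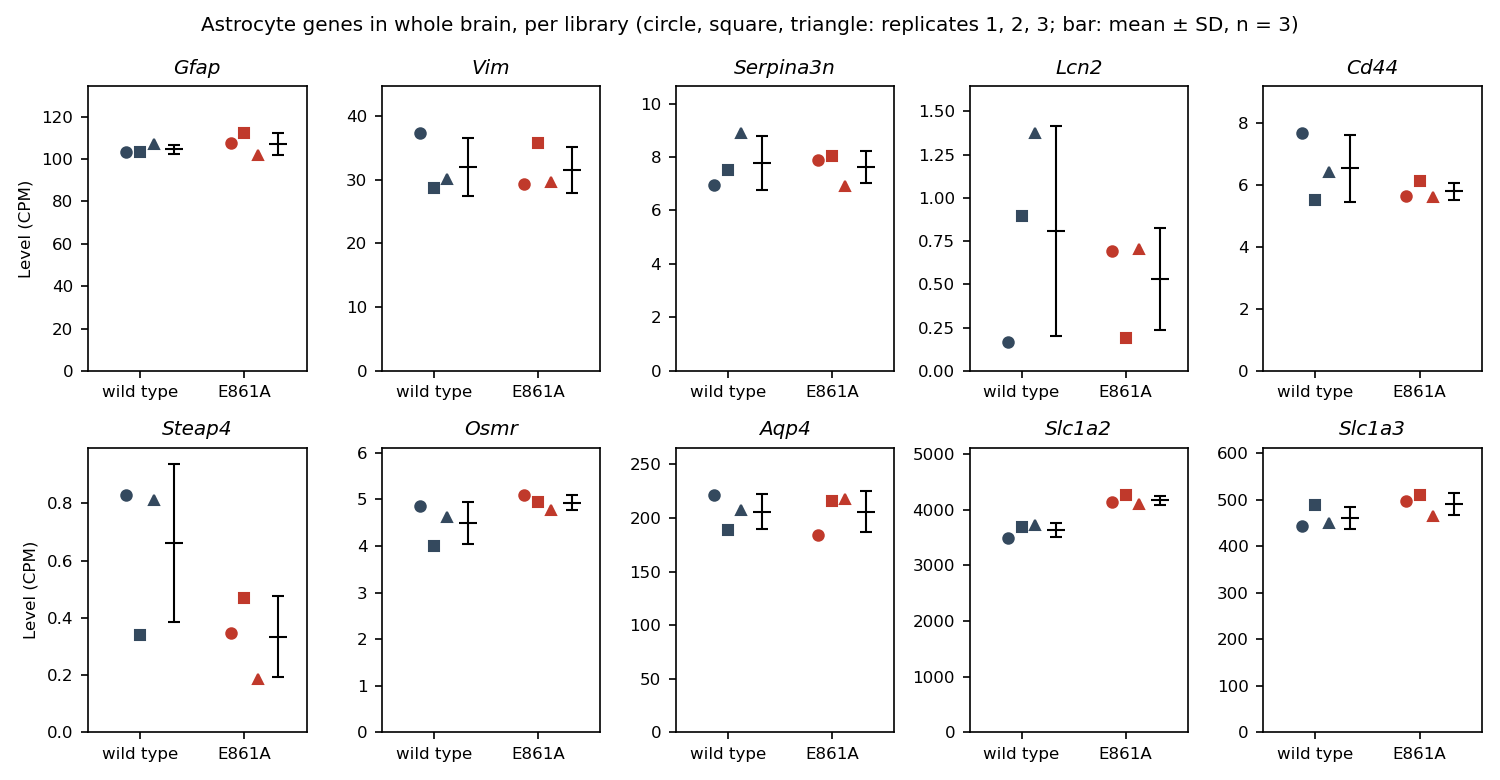
Level of each astrocyte gene (CPM, vertical axes from 0, a separate scale for each gene) in the 3 wild-type and 3 E861A brains. Points are libraries and black bars are the mean ± SD. The 2 genotypes overlap for 9 genes, and for Slc1a2 the E861A brains (4098 to 4261 CPM) all lie above the wild-type brains (3488 to 3722 CPM).

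Short stretches of promoter sequence are shown because they bear the letters of elements through which the cytokine and the interferon routes are known to act, and results for the genes of both routes follow. Windows from 250 bases before to 50 after the annotated start came from RefSeq (GRCm38.p6, a later build than that of the counts), which held an entry for 9 of the 10 members, Aqp4 being the member without one. A gene was counted once if any of its windows matched. Some genes had several windows, so gene counts and the share of all windows are on different scales. The STAT-type element TTCNNNGAA, which reads the same on both strands, was found in 3 of the 9 members and in 8.3% of 32851 windows. It was also found in 3 of 7 other Serpina3 genes with a window, 3 of 8 ischaemia-associated genes and 1 of 3 other STEAP genes. It was found in 1 of 9 LPS-associated, 1 of 12 cytokine-route, 1 of 18 other homeostatic and 0 of 6 other pan-reactive genes. Outside the astrocyte lists it was found in 1 of 10 interferon-stimulated, 1 of 7 oligodendrocyte, 1 of 6 endothelial and 1 of 3 cerebellar genes. The core of the interferon-stimulated response element, GAAANNGAAA or TTTCNNTTTC on the other strand, was found in 0 of the 9 members and in 3.44% of all windows. Among genes with a window, it was present in 4 of the 9 LPS-associated reactive genes described below and in 6 of 10 interferon-stimulated genes. It was also present in 2 of 8 ischaemia-associated genes, 1 of 6 other pan-reactive genes, 1 of 7 other Serpina3 genes and 1 of 18 other homeostatic genes. The CD44 partners, the microglial genes and the endothelial genes each had it in 1 of 6, and the meningeal genes in 1 of 3. Of the 4 LPS-associated genes with the core (Fbln5, Gbp2, H2-T23 and Srgn), Gbp2 was called below and the other 3 were not. Iigp1 and H2-D1 of the same list were also called. Iigp1 had no promoter entry, and no match to the core was found for H2-D1. Sequences are written in the direction of the gene, with the matching letters in capitals.
Gfap, chr11:102897184-102897212, minus strand, 2 bases before the start: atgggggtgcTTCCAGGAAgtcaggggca
Steap4, chr5:7960346-7960374, plus strand, 116 bases before the start: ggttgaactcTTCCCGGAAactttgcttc
Slc1a3, chr15:8710885-8710913, minus strand, 96 bases before the start: ttcaggatccTTCCAAGAAatttcagtta
Gbp2, chr3:142620594-142620623, plus strand, 59 bases before the start: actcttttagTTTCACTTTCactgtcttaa
Cxcl10, chr5:92349083-92349112, minus strand, 213 bases before the start: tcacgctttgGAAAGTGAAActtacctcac
Ifit1, chr19:34640775-34640804, plus strand, 104 bases before the start: caggcttcagTTTCACTTTCcagtctcagt
These matches are descriptions of letters and do not show that a factor bound there.

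None of the 10 members passed the test of the genotype difference. Genes were tested with edgeR's quasi-likelihood test where they reached 2 CPM in all 3 brains of either genotype, which 8 of the 10 members and 13649 genes did, and a gene was called at a Benjamini-Hochberg adjusted p under 0.05 over all tested genes. Of the 8 tested members 0 were called, against 69 of all tested genes (0.506%), and 1 member, Slc1a2, had an unadjusted p under 0.05, against 9.01% of all tested genes. On the same genes, the likelihood ratio test called 1 member, Slc1a2, and 139 genes in all (1.02%). DESeq2 called 1 member, again Slc1a2, and 82 genes in all (0.601%), and limma-voom called 0 members and 68 genes in all (0.498%).

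Gfap, the main intermediate filament protein of astrocytes and the standard marker of their reactive state, read 107.7, 112.0 and 101.7 CPM in E861A replicates 1, 2 and 3 and 103.2, 103.2 and 107.1 CPM in wild type. The genotypes overlapped, with the highest and the lowest value both in E861A brains. The log2 fold change of E861A over wild type was 0.04 ± 0.05 (SE, n = 3 per genotype), with an edgeR adjusted p of 0.853. Its 95% interval ran from 0.954-fold to 1.10-fold.

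Vim encodes vimentin, an intermediate filament of reactive astrocytes that endothelial and other cells also make. It read 29.4, 35.7 and 29.6 CPM in E861A and 37.3, 28.7 and 30.2 CPM in wild type. The genotypes overlapped throughout, and wild-type replicate 1 was the highest. Its log2 fold change was -0.01 ± 0.09 (edgeR adjusted p = 0.983), with an interval from 0.861-fold to 1.14-fold.

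The ratio of Gfap to Vim counts within a library, which does not depend on library size, was 3.41 ± 0.27 (SD, n = 3) in E861A and 3.30 ± 0.46 in wild type (two-sided exact permutation p = 0.8). The Gfap to Aqp4 ratio was 0.524 ± 0.059 and 0.510 ± 0.041 (exact permutation p = 0.7), and the Gfap to Slc1a3 ratio was 0.218 ± 0.002 and 0.227 ± 0.014 (exact permutation p = 0.4). None of the 3 ratios separated the genotypes.

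Serpina3n encodes a secreted serine protease inhibitor that is induced in most forms of astrocyte reactivity. It read 7.90, 8.02 and 6.93 CPM in E861A and 6.94, 7.51 and 8.88 CPM in wild type, with the highest value in wild-type replicate 3 and the lowest in E861A replicate 3. E861A differed from wild type by a log2 fold change of -0.02 ± 0.11 (edgeR adjusted p = 0.967). Of the 75-base windows of its longest coding transcript, 1.31% were shared with Serpina3g, which held 7 to 17 counts per library against 186 to 317 for Serpina3n. Among the 10 other Serpina3 genes of the cluster, 0 reached the level needed for the test.

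Cd44, the receptor for hyaluronan, read 5.65, 6.12 and 5.62 CPM in E861A and 7.66, 5.52 and 6.41 CPM in wild type. Wild-type replicate 1 was again the highest, and wild-type replicate 2 the lowest. This gave a log2 fold change of -0.16 ± 0.12 (edgeR adjusted p = 0.720), with an interval from 0.745-fold to 1.07-fold. It was -0.04 without wild-type replicate 1 and -0.26 without wild-type replicate 2, and called in neither case. Of 8 genes of hyaluronan synthesis and of CD44 ligands and partners, 6 were tested and 0 called, the smallest adjusted p being that of Msn, the membrane linker moesin (log2 fold change -0.16, edgeR adjusted p = 0.447).

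Osmr, the receptor subunit that pairs with gp130 to bind oncostatin M, read 5.09, 4.93 and 4.77 CPM in E861A and 4.87, 3.99 and 4.62 CPM in wild type. The E861A values were higher in each of the 3 pairs of equal replicate number, but the lowest E861A brain lay below the highest wild-type brain. What these numbers stand for is not stated, so pairs here and below are of equal number only. On the log2 scale the fitted difference was 0.14 ± 0.11 (edgeR adjusted p = 0.751), and 0.07 without wild-type replicate 2. With the trimmed mean of M values (TMM) as the scale in place of column totals, the genotypes of Osmr did not overlap, and the exact permutation p was 0.1, the smallest that 3 brains against 3 allow.

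The cytokine route upstream of these genes gave 0 calls among the 8 tested of 14 genes, with log2 fold changes from -0.09 to 0.06. Il6st, which encodes gp130, read 94.5 ± 1.4 CPM in E861A and 96.5 ± 1.3 CPM in wild type (SD, n = 3). Stat3 read 40.1 ± 0.4 and 42.0 ± 1.0 CPM, a log2 fold change of -0.06 ± 0.05 (edgeR adjusted p = 0.735). The ligands were near the limit of detection, with 1 to 3 counts of Osm and 0 to 2 counts of Il6 per library.

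Lcn2 and Steap4 did not reach 2 CPM in all brains of either genotype and were read from a second fit with edgeR's filterByExpr, in which 110 of 19366 genes (0.568%) were called and neither of these 2 genes was. Lcn2 encodes lipocalin 2, a carrier of siderophore-bound iron. Its counts were 20, 7 and 19 in E861A and 6, 34 and 49 in wild type, so the lowest and the highest library were both wild type. The log2 fold change was -0.68 ± 0.52 with an edgeR adjusted p of 0.776, and the interval, from 0.291-fold to 1.34-fold, was wide at these counts. Single brains moved the value from -0.09 without wild-type replicate 3 to -1.17 without wild-type replicate 1.

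Steap4, a metalloreductase of iron and copper, held 10, 17 and 5 counts in E861A and 30, 13 and 29 in wild type. Replicates 1 and 3 were lower in E861A and replicate 2 was higher, and the genotypes overlapped. Its log2 fold change was -0.92 ± 0.38 (edgeR adjusted p = 0.545), with an interval from 0.301-fold to 0.927-fold. The edgeR p of Steap4 before adjustment was 0.0284 in this second fit. The size of the fitted difference depended on single brains, from -0.67 without E861A replicate 3 to -1.29 without E861A replicate 2.

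**Figure D2:**
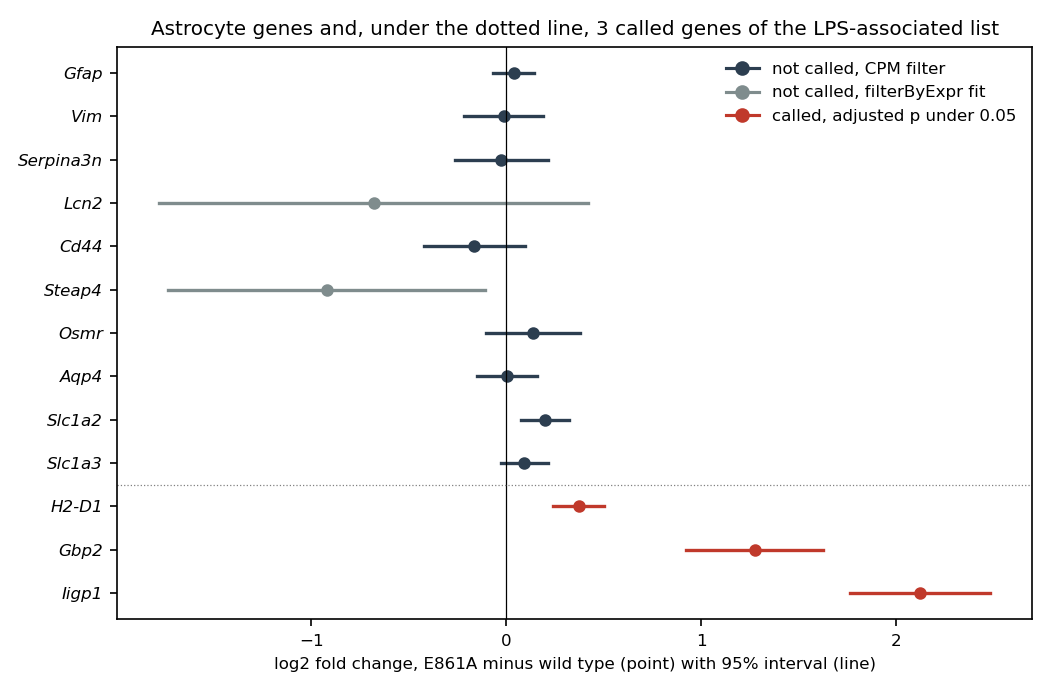
Log2 fold change of E861A over wild type (horizontal axis, points) with its 95% interval (lines) for the 10 astrocyte genes and for 3 LPS-associated genes under the dotted line. The intervals of 8 of the 10 astrocyte genes span 0, those of Slc1a2 and Steap4 do not although neither was called, and Iigp1 (2.12), Gbp2 (1.28) and H2-D1 (0.37) were called.

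Among the homeostatic members, Slc1a2 was higher in E861A in every brain but missed the threshold of the test. It encodes GLT-1, the transporter that takes up most of the glutamate released in the forebrain. Its level was 4137, 4261 and 4098 CPM in E861A and 3488, 3680 and 3722 CPM in wild type. The lowest E861A brain thus lay above the highest wild-type brain. This amounted to a log2 fold change of 0.20 ± 0.06, or 1.15-fold with an interval from 1.05-fold to 1.25-fold (edgeR adjusted p = 0.261). Before adjustment the edgeR p was 0.00371. A change at least this large, in either direction, was seen in 8.22% of all tested genes.

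The call of Slc1a2 changed with the test, while its fitted log2 fold change stayed between 0.16 and 0.22 in every alternative run. With the replicate number as a block, which uses the difference within each pair, Slc1a2 was called (log2 fold change 0.20 ± 0.04, edgeR adjusted p = 0.0374), and the 3 pairs differed by 0.24, 0.21 and 0.16 on the log2 scale. That fit called 158 genes (1.16%). The labels do not state that equal numbers mark pairs, so the block call is an alternative and not separate support. Slc1a2 was also called by the likelihood ratio test (adjusted p = 0.0341) and by DESeq2 (adjusted p = 0.00314), and not by limma-voom (adjusted p = 0.101). With each of the 6 libraries left out in turn Slc1a2 was not called, at edgeR adjusted p between 0.219 and 0.634, and without E861A replicate 1, the library with the high pituitary sum, the log2 fold change was 0.22.

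Separation of the genotypes as such was common. Slc1a2 was 1 of the 8 tested members (12.5%) whose CPM did not overlap, against 13.8% of all tested genes. On the TMM scale 2 members, Osmr and Slc1a2, did not overlap, against 14.2% of all tested genes. The two-sided exact permutation p of Slc1a2 was 0.1, the smallest this design can give.

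The antisense gene Gm13872 overlaps 189 bases of Slc1a2 exons, with 180 to 206 counts per library against 110051 to 154601 for Slc1a2. In the same annotation Slc1a2 lies at chr2:102498816-102630941 on the plus strand and Cd44 at chr2:102651298-102741822 on the minus strand, 20.4 kb away. The 2 neighbours gave fitted log2 fold changes of opposite sign, 0.20 and -0.16, and the difference between them was not tested.

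Slc1a3, which encodes GLAST, the glutamate transporter of cerebellar and radial glia among others, read 498, 510 and 466 CPM in E861A and 444, 489 and 449 CPM in wild type. E861A was higher within each of the 3 pairs, and the genotypes overlapped across pairs. Its log2 fold change was 0.09 ± 0.06, or 1.07-fold with an interval from 0.983-fold to 1.16-fold (edgeR adjusted p = 0.643). Without E861A replicate 2 it was 0.06, and without wild-type replicate 2 it was 0.15. With the replicate block the unadjusted p was 0.0168 and the edgeR adjusted p 0.218. The ratio of Slc1a2 to Slc1a3 counts within a library was 8.31, 8.35 and 8.80 in E861A and 7.86, 7.53 and 8.29 in wild type. These values did not overlap, by a narrow margin (exact permutation p = 0.1, the smallest possible). The ratio of Slc1a2 to Aqp4 counts was 22.5, 19.7 and 18.9 in E861A and 15.8, 19.5 and 17.9 in wild type, which overlapped (exact permutation p = 0.2).

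Of the other 5 genes of the SLC1 transporter family, 3 were tested and 0 called, with log2 fold changes from -0.16 to -0.02. The neuronal glutamate transporter Slc1a1 read 82.9 ± 1.1 CPM in E861A and 85.7 ± 0.3 CPM in wild type (SD, n = 3, edgeR adjusted p = 0.809). The Purkinje cell transporter Slc1a6 read 16.3 ± 2.2 and 18.2 ± 1.0 CPM (edgeR adjusted p = 0.612).

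Aqp4 had a mean of 205.9 ± 18.9 CPM in E861A and 205.9 ± 16.4 CPM in wild type (SD, n = 3). Its libraries read 184.1, 216.2 and 217.4 CPM in E861A and 221.4, 188.8 and 207.7 CPM in wild type, with the highest value in wild-type replicate 1 and the lowest in E861A replicate 1. The log2 fold change was 0.00 ± 0.07 (edgeR adjusted p = 0.991), with an interval from 0.902-fold to 1.11-fold. The 7 genes that anchor aquaporin-4 in the endfoot membrane gave 0 calls and a median of 0.01 on the log2 scale. The 2 with the smallest adjusted p were Dmd, which encodes dystrophin, at 0.14 ± 0.05 (edgeR adjusted p = 0.345) and Dtna, which encodes dystrobrevin alpha, at 0.12 ± 0.05 (edgeR adjusted p = 0.496).

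**Figure D3:**
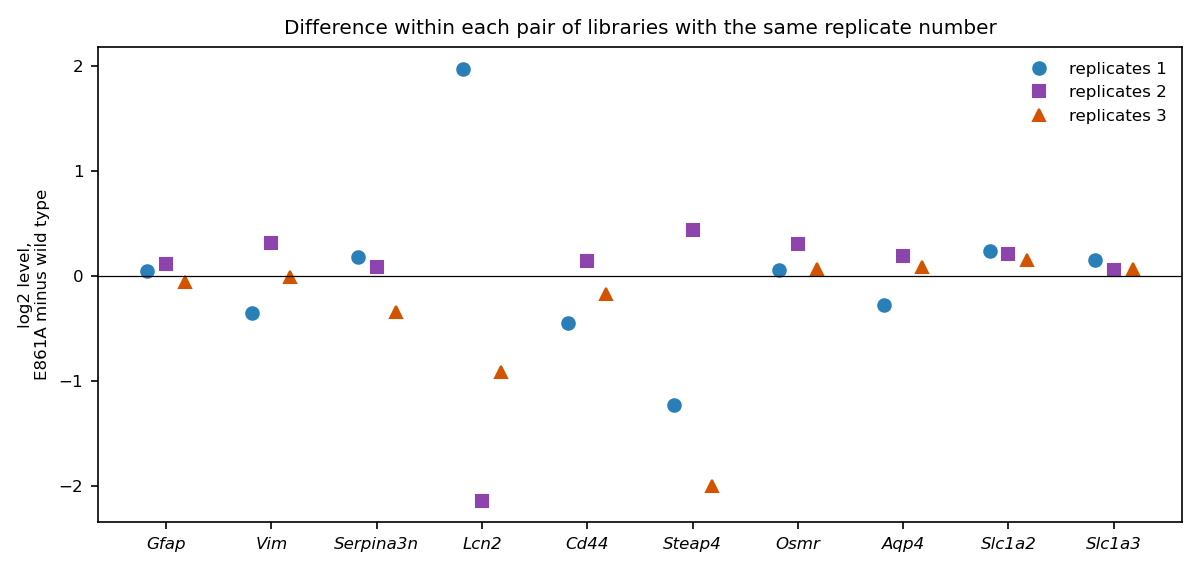
Difference in log2 level (vertical axis, TMM-scaled CPM with a prior count of 0.5) between E861A and wild-type libraries of the same replicate number, for each of the 10 astrocyte genes. All 3 differences are above 0 for Osmr, Slc1a2 and Slc1a3, and the other 7 genes have differences on both sides of 0. The share of all tested genes with all 3 differences on 1 side of 0 was not computed, so this count is a description only. Differences of Lcn2 and Steap4, which hold under 50 counts per library, are the widest.

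Beside the members, 27 lists of other genes were read, of which the astrocyte lists held 77 tested genes. Of these 3 were called, by edgeR's quasi-likelihood and likelihood ratio tests, DESeq2 and limma-voom alike (Gbp2, H2-D1 and Iigp1), and 15 had an unadjusted quasi-likelihood p under 0.05, beside 0.506% called and 9.01% under 0.05 of all tested genes. Of the called genes, Gbp2 and Iigp1 entered the test only through E861A, where they were higher. In the lists without a call, the genes with an unadjusted p under 0.05 were 4 of 6 intermediate filament genes, 2 of 7 aquaporin-4 anchors, 1 of 22 other homeostatic genes, 1 of 6 ischaemia-associated genes, 1 of 6 CD44 partners and 1 of 2 aquaporins. The 22 other homeostatic genes were all tested, 0 were called, and their log2 fold changes had a median of -0.01 and lay between -0.24 and 0.11, beside a median of 0.00 over all tested genes. The lowest was Mfge8, a secreted bridge for phagocytosis, at 42.2 ± 3.4 CPM in E861A and 49.9 ± 5.2 in wild type (log2 fold change -0.24 ± 0.07, edgeR adjusted p = 0.309). Atp1b2, a sodium pump subunit of glia, gave -0.10 ± 0.05 (edgeR adjusted p = 0.582).

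Of the 6 other genes that mark reactive astrocytes of any kind, 4 were tested and 0 called, with Hspb1 (a small heat shock protein) at a log2 fold change of -0.24 and Timp1 (an inhibitor of matrix metalloproteinases) at 0.19. The chemokine gene Cxcl10 was below the expression filter. It held 24, 17 and 20 counts in E861A and 1, 0 and 1 in wild type, a CPM ratio of 36.4 over the summed libraries with an exact 95% interval from 9.67 to 308 that covers counting error alone. In the filterByExpr fit Cxcl10 was called (edgeR adjusted p = 0.000155), having passed that filter only through its E861A counts. Its promoter window is among those printed above with the interferon response core.

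The reactive genes associated with lipopolysaccharide (LPS), an inflammatory stimulus, were the astrocyte list with calls. Of its 11 genes 10 were tested, and 3 rose, against 0.41% of all tested genes called higher. Iigp1 and Gbp2 met the filter of 2 CPM in all 3 brains only in E861A, where they were higher. This share is therefore a description and not support for the list. The list median was 0.25. Iigp1, an interferon-induced GTPase, read 3.88, 4.55 and 4.92 CPM in E861A and 0.995, 1.18 and 0.868 CPM in wild type. It rose by 2.12 ± 0.17 on the log2 scale (edgeR adjusted p = 1.27e-05), and no library overlapped. Gbp2, a guanylate-binding protein, read 3.74, 4.80 and 5.25 CPM against 2.18, 1.89 and 1.62 CPM, again with no overlap, and rose by 1.28 ± 0.16 (edgeR adjusted p = 0.000969). H2-D1, a class I major histocompatibility gene, read 29.1, 30.8 and 29.1 CPM against 24.5, 21.7 and 22.8 CPM. It rose by 0.37 ± 0.06 (edgeR adjusted p = 0.00854), a call that was lost without E861A replicate 3 (adjusted p = 0.0697) and without wild-type replicate 3 (adjusted p = 0.0779).

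These 3 genes belong to families of related sequence, and gene counts of the kind used here leave out reads that align to several places. All 3 are also known interferon targets that microglia, endothelial cells and neurons can express. The list of 12 interferon-stimulated genes, read for comparison, had 10 tested and 8 called higher, and its median was 1.47 on the log2 scale (9 called with the replicate block, which adds Irf9). Ifit1 led it at 9.53 ± 0.33 CPM in E861A against 2.37 ± 0.27 in wild type (log2 fold change 2.00 ± 0.11, edgeR adjusted p = 5.87e-07). Ifit3, Oasl2, Usp18, Bst2, Rsad2 and Irf7 rose by 1.26 to 1.80. In bulk tissue the cells in which these RNAs lay cannot be told, and fewer cells of a type cannot be told apart from less RNA per cell.

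The reactive genes associated with ischaemia gave 0 calls among the 6 tested of 12, and their median was -0.11 on the log2 scale. The lowest was Cd109, a membrane protein that binds TGF-beta, at 2.36 ± 0.56 CPM in E861A and 3.63 ± 0.36 in wild type (edgeR adjusted p = 0.253), and Ptgs2, the inducible cyclooxygenase, gave -0.10 (edgeR adjusted p = 0.712). The difference between the LPS-associated and the ischaemia-associated list was not tested.

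The intermediate filament genes other than Gfap and Vim are mostly neuronal. Of 8, 6 were tested and 0 called, all 6 had a negative log2 fold change, and the median was -0.15. The 2 neurofilament genes with the smallest adjusted p were Nefh at 131.5 ± 3.2 CPM in E861A and 149.9 ± 7.3 in wild type (edgeR adjusted p = 0.211) and Nefm at 275.0 ± 21.1 and 315.1 ± 20.8 CPM (edgeR adjusted p = 0.371). With the replicate block both were called lower, with edgeR adjusted p of 0.0281 and 0.00915. The remaining small lists, which held other aquaporins, other STEAP reductases and receptors of lipocalin 2, gave 0 calls among 2, 2 and 1 tested genes. Their smallest adjusted p were those of Aqp11 (log2 fold change -0.26, edgeR adjusted p = 0.515), Steap3 (0.14, edgeR adjusted p = 0.769) and the lipocalin 2 receptor gene Slc22a17 (-0.08, edgeR adjusted p = 0.629).

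**Figure D4:**
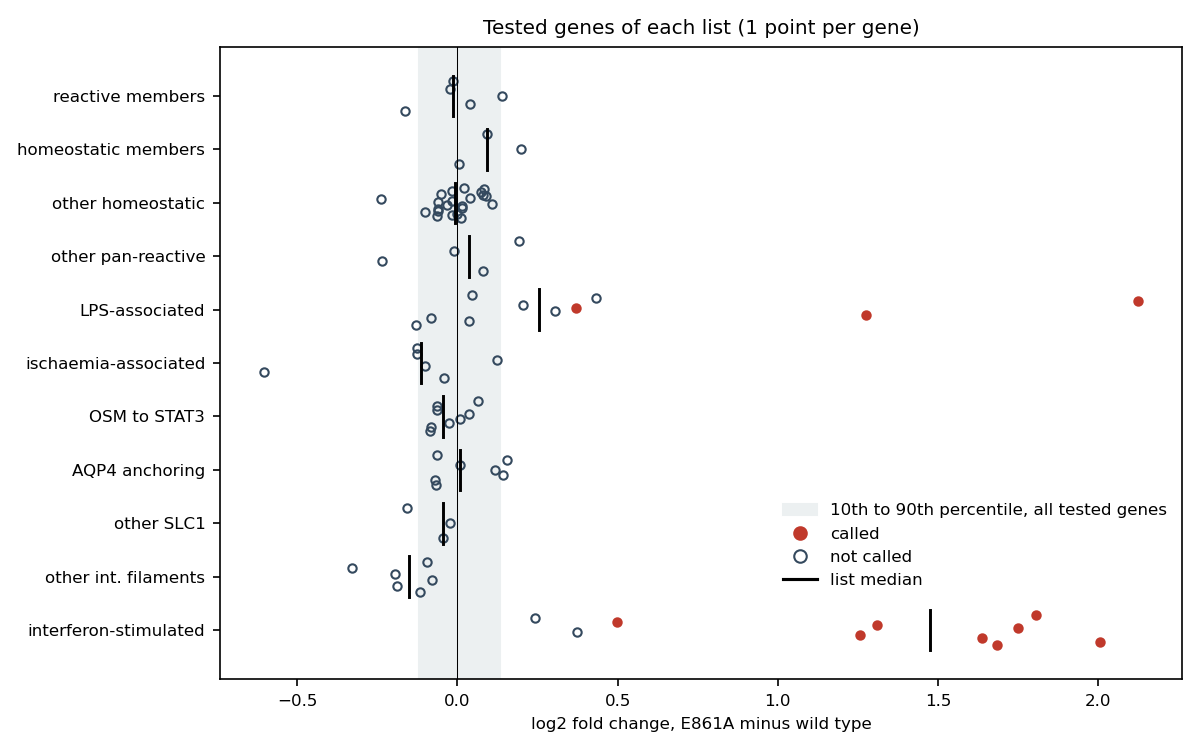
Log2 fold change of E861A over wild type (horizontal axis) for each tested gene of the astrocyte lists and of the interferon-stimulated list (rows), with list medians as black bars. Called genes are filled, and they fall in the LPS-associated list (3 of 10) and the interferon-stimulated list (8 of 10), while the black medians of the reactive and homeostatic members lie inside the grey band from -0.12 to 0.13 that spans the 10th to 90th percentile of all tested genes.

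Summed over the 3 homeostatic members, the level was 4781 to 4987 CPM in E861A and 4153 to 4379 CPM in wild type, of which Slc1a2 made up most. The 22 other homeostatic genes summed to 5670 to 6096 CPM in E861A and 5621 to 6163 CPM in wild type, which overlapped. The 7 reactive members summed to 149.5 to 167.5 CPM in E861A and 150.2 to 160.9 CPM in wild type, which also overlapped.

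Summed levels of some other cell and region markers did not overlap between genotypes, a difference that was not tested. Single tested genes did not overlap in 13.8% of cases, and no such share was computed for sums. The sums of other SLC1, intermediate filament and aquaporin genes, CD44 partners, lipocalin 2 receptors and LPS-associated genes did not overlap either. On the TMM scale those of the SLC1, CD44 and lipocalin 2 lists overlapped. The 9 endothelial and mural cell genes summed to 202 to 243 CPM in E861A and 254 to 307 CPM in wild type. Their log2 fold changes were negative in 9 of 9, had a median of -0.32 and gave 0 calls in the edgeR fit, with 5 unadjusted p under 0.05, and Rgs5, a pericyte gene, had the smallest adjusted p (edgeR adjusted p = 0.0717). With the replicate block Rgs5 was called lower (edgeR adjusted p = 0.0401). Wild-type replicate 1 was the highest library of this sum, as it was for Vim, Cd44, Steap4 and Aqp4. The 6 choroid plexus and ependymal genes summed to 228 to 336 CPM in E861A and 396 to 416 CPM in wild type, with Ttr, the transthyretin of the choroid plexus, at a log2 fold change of -0.51 (edgeR adjusted p = 0.124). With the replicate block Ttr was called lower as well (edgeR adjusted p = 0.0241).

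The 6 meningeal fibroblast genes summed to 144 to 163 CPM in E861A and 119 to 134 CPM in wild type, and the collagens Col1a2 and Col3a1 rose by 0.42 and 0.57 on the log2 scale (edgeR adjusted p = 0.0199 and 0.0316). The 4 hindbrain genes summed to 26.5 to 33.5 CPM in E861A and 34.4 to 37.2 CPM in wild type, and of these 1 was tested and 0 called. The sums of neuronal, oligodendrocyte and microglial genes overlapped between genotypes, with 0 calls each and 2, 0 and 1 unadjusted p under 0.05 in the edgeR fit. The part of these differences in the values of Slc1a2, Vim, Cd44, Steap4 and Aqp4 was not tested.

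**Figure D5:**
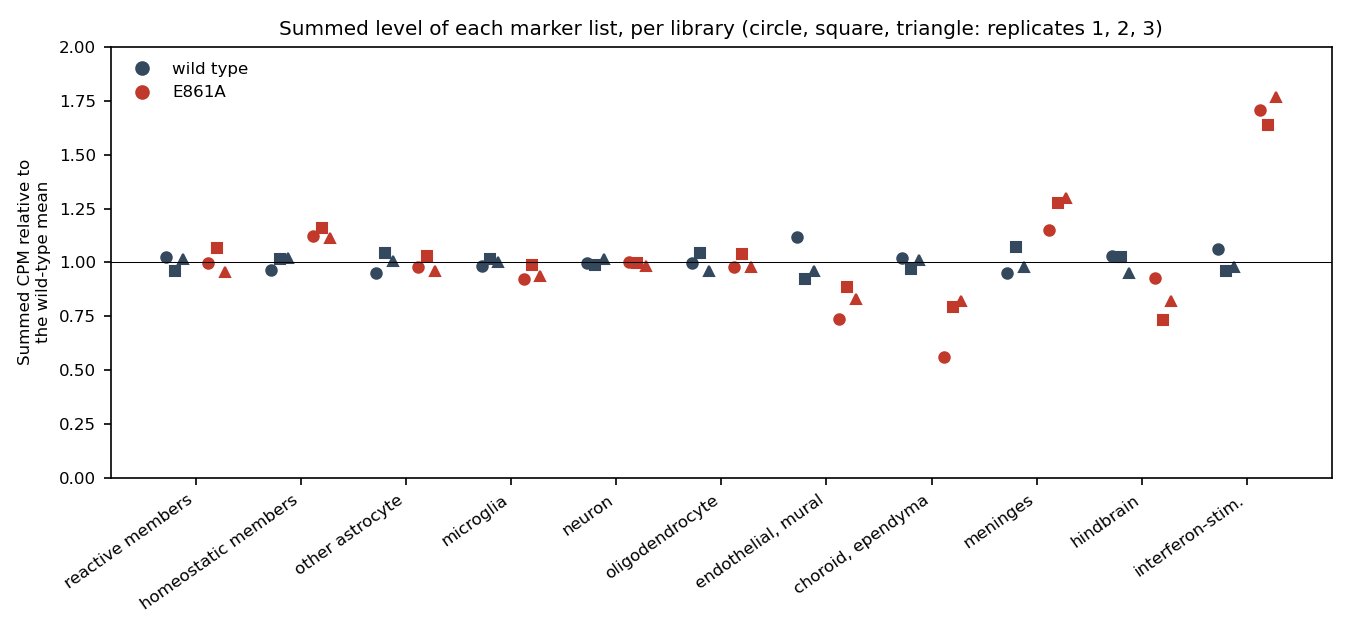
Summed CPM of each gene list in each library, relative to the mean of the 3 wild-type libraries (vertical axis from 0). The sum of the homeostatic members, most of which is Slc1a2, lies above wild type in all 3 E861A brains. Reactive members and other astrocyte genes overlap, endothelial, choroid plexus and hindbrain genes lie below, and meningeal and interferon-stimulated genes lie above.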

How the data were processed

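Total RNA of 6 whole brains was sequenced by the authors as paired 75-base reads after ribosome depletion, with a stranded Kapa kit and with synthetic spike-ins (Sequins). Per the submitters' processing notes, reads were trimmed with Trimmomatic 0.36 and aligned with STAR 2.5.2a to mm9, and the deposited counts are whole read counts per gene from STAR's own counting. Which strand column of STAR was taken is not stated. The deposited tables of normalized values and of the authors' own comparison (fold changes, false discovery rates) were not used. Genotype and replicate number came from the sample labels, and 0 columns were left unassigned.

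CPM were computed from column totals. The test was edgeR 4.0.16 (quasi-likelihood, TMM factors 0.986 to 1.02, R 4.3.3), two-sided, on genes with at least 2 CPM in 3 of 3 brains of either genotype, with Benjamini-Hochberg adjustment over 13649 genes. DESeq2 1.42.0 and limma-voom (limma 3.58.1) were alternatives. The quasi-likelihood, likelihood ratio, DESeq2, limma-voom and block fits were run on simulated counts, and the other alternatives were not. The changes put in were larger than that of Slc1a2, and no pair effect was put in. Exon lengths and overlaps came from the GENCODE vM1 annotation, and promoter sequences from RefSeq (GRCm38.p6). Same-numbered libraries deviated together (r = 0.22, 0.325 and 0.11 over 13649 genes), and libraries of unlike number gave r from -0.252 to 0.0525. Deviations were taken from the mean of each genotype, so positive r at equal numbers lowers r at unlike numbers. The contrast between them is thus partly built in and does not establish a pairing. The numbers were taken as pairs in the replicate block, although their source is not stated and the labels give no pairing. This pairing was read from the same counts, so the block calls are an alternative and not separate support. The members and lists were chosen with earlier results of these data known. Named were all members, each called gene of the other lists and otherwise up to 2 genes with the smallest adjusted p per list, and the few others (Il6st, Stat3, Cxcl10, Osm, Il6, Serpina3g, Irf9, Fbln5, H2-T23, Srgn) were chosen after their values were seen. A called gene of the interferon list is not reported here by name. Of the listed symbols, 3 had no match. Marker lists of blood, cerebellum, cortex, striatum and oligodendrocyte precursors gave overlapping sums and 0 calls.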

Additional observations from a re-analysis of the deposited data

How the results depend on the processing

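The count of members called was 0 in the fit reported, with DESeq2 size factors, library totals, limma-voom, filterByExpr and the filter of 2 CPM in any 3 libraries, and 0 in each of the 6 fits that left out 1 library. It was 1, Slc1a2, with the likelihood ratio test, DESeq2, the replicate block and no filter. The exact permutation p reached its smallest value for 2 members on the TMM scale and for 1, Slc1a2, with library totals. With the replicate block, which uses the pairing of equal numbers, the other astrocyte lists had 5 calls in place of 3 and all genes 158 in place of 69, and no filter gave 10 and 376. The calls over the other astrocyte lists lay between 2 and 4, and those over all genes between 42 (without E861A replicate 3) and 113 (without E861A replicate 2), as libraries were left out. The likelihood ratio test called 139 genes in all, and filterByExpr 110. Beyond Slc1a2, Nefh and Nefm, the block added calls of Rgs5, Ttr and Irf9 in the lists read, and no other. The cause of these shifts was not tested.

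Members with log2 fold changes near 0 changed sign. As libraries were left out, Gfap lay between -0.0065 (without E861A replicate 2) and 0.0672, Vim between -0.1261 and 0.1013 (above 0 without E861A replicates 1 or 3 or wild-type replicate 1), Serpina3n between -0.1056 and 0.0774 (above 0 without replicate 3 of either genotype) and Aqp4 between -0.0449 and 0.0886 (below 0 without E861A replicates 2 or 3 or wild-type replicate 2). Aqp4 was -0.006 with no filter and -0.0027 with filterByExpr. Slc1a2, Slc1a3, Osmr, Cd44, Lcn2 and Steap4 kept their sign in each alternative run. Lcn2 and Steap4 gave no value under the filter of 2 CPM in any 3 libraries. With 3 brains per genotype, p-values cover the spread between these mice. Lcn2 and Steap4 held at most 49 and 30 counts in a library.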
